A study of Mus musculus with 474 samples.

Results

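The genes described here are the nuclear genes named for respiratory complex I, the NADH:ubiquinone oxidoreductase of the inner mitochondrial membrane. They were chosen by name, as every gene of the deposited tables whose symbol begins with Nduf and is not marked as a pseudogene by the ending -ps, which gave 47 of 20612 genes. Skeletal muscle RNA was sequenced from Diversity Outbred mice, an outbred stock that mixes the genomes of several inbred strains, with 1 library per animal and with 49.6% of libraries labelled female and 50.4% male. All animals had the same high-fat, high-sugar diet, labelled 45percent fat, so there was no group on another diet. The titles also carry the number 17, 18, 19, 21 or 23, read here as the generation of the outbred stock, and the 10 groups of sex and generation held 45 to 50 animals each. Because every animal is genetically distinct, the spread within a group includes genetic differences between animals as well as technical error.

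Complex I takes electrons from NADH, passes them along a chain of a flavin and iron-sulfur clusters in an arm that reaches into the matrix, and hands them to ubiquinone while a membrane arm pumps protons. Its core subunits carry out this chemistry and are shared with bacteria. The accessory subunits surround the core, and separate assembly factors build the complex without remaining in it. In muscle, the enzyme feeds the respiratory chain that supplies sustained contraction.

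By their known roles, the 47 genes were 7 core subunits, 9 accessory subunits of the matrix arm, 19 accessory subunits of the membrane arm, the acyl carrier protein Ndufab1, 8 assembly factors (Ndufaf1 to Ndufaf8), 2 genes that carry the family's name but whose products are assigned elsewhere (Ndufa4, now counted with cytochrome c oxidase, and its relative Ndufa4l2) and Ndufb4c, annotated as a processed pseudogene. The 35 core and accessory subunits are called the subunits below. All 47 genes passed the filter on low counts.

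Total counts ran from 35.9 M to 165.7 M per library (M, 1e6 counts), with a median of 79.3 M. In 5 libraries, 3 labelled female and 2 male, the sex-linked transcripts went against the labelled sex. The libraries also fell into 5 blocks of consecutive library numbers, whose nature the labels do not state. All 5 skeletal muscle markers fixed for the check (Acta1, Ckm, Mb, Ttn and Des) were expressed, with a lowest summed level of 45293 CPM (counts scaled to library size, with TMM factors) in any library labelled female and 51189 in any labelled male. In bulk muscle, fewer cells of a type and less RNA per cell cannot be told apart.

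In the GRCm38 reference, several of these genes have near-identical copies elsewhere in the genome, which limits how their values can be read. The sequences of the founder strains, to which the reads were aligned, were not compared. Ndufb4, an accessory subunit of the membrane arm on chromosome 16 (GRCm38 chr16:37647170-37654453, minus strand), has a coding sequence of 390 bases that was identical at every base to Ndufb4c on chromosome 15 (chr15:73809507-73809896, minus strand). The first 150 bases, which hold for both genes, are shown in lower case throughout because no base differs.

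Ndufb4 and Ndufb4c: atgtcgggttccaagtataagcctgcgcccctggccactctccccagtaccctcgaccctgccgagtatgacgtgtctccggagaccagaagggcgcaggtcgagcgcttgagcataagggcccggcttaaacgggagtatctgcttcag

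Ndufab1, the mitochondrial acyl carrier protein, which complex I holds as a subunit and which also serves lipoic acid and iron-sulfur cluster synthesis, lies on chromosome 7 (chr7:122085403-122101886, minus strand). It differed from the processed pseudogene Gm4459 (chr7:139659688-139660155, minus strand) at 1 base, an identity of 99.79% over the whole length of Gm4459. The difference is G51A, counted from the first base printed, with the base of Ndufab1 given first, and it stands in capitals in the stretches of 150 bases below.

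Ndufab1: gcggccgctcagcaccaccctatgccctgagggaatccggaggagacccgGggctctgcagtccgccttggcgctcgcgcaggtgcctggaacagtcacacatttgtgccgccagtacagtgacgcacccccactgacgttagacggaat
Gm4459: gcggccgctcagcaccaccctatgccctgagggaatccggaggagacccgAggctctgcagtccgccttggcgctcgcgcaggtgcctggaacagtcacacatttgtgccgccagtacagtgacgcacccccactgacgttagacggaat

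Reads that lie wholly in stretches identical in an animal cannot be placed by sequence. The Ndufb4 transcript compared has 971 bases, of which 390 match the copy, and variants between founder strains were not examined. The deposited division of counts between a gene and its copy is therefore uncertain. The division differed sharply between libraries for Ndufb4. The share of Ndufb4c in the summed level of Ndufb4 and Ndufb4c fell into 3 separate clusters of libraries, with no library between 0.295% and 44.2% or between 50.6% and 71.7%. In the largest cluster, with 85.9% of libraries, the share had a median of 77.5%. In the middle cluster of 65 libraries the median was 46.8%, and in 2 libraries the share was at most 0.295%.

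In the largest cluster, Ndufb4 ran from 12.03 to 26.2 CPM with a median of 21.4, and Ndufb4c from 44.7 to 96.3 with a median of 73.7. In the 65 libraries Ndufb4 ran from 32.3 to 59.2 CPM with a median of 47.7, and Ndufb4c from 30.4 to 52.8 with a median of 42.1. Of the 2 libraries, one had Ndufb4 at 82.7 CPM and Ndufb4c at 0.245, and the other had 89.8 and 0.0496. The summed level had medians of 95.2, 89.4 and 86.4 CPM in the largest cluster, the 65 libraries and the 2 libraries. The levels of Ndufb4 did not overlap between the clusters. With sums this close, that follows nearly from the cut, because the share that defines the clusters contains Ndufb4. Both sexes, all 5 generations and all 5 blocks were present in both larger clusters (50.4% and 44.6% females). These clusters are not groups of the study, and they were defined after the values were seen.

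**Figure D1:**
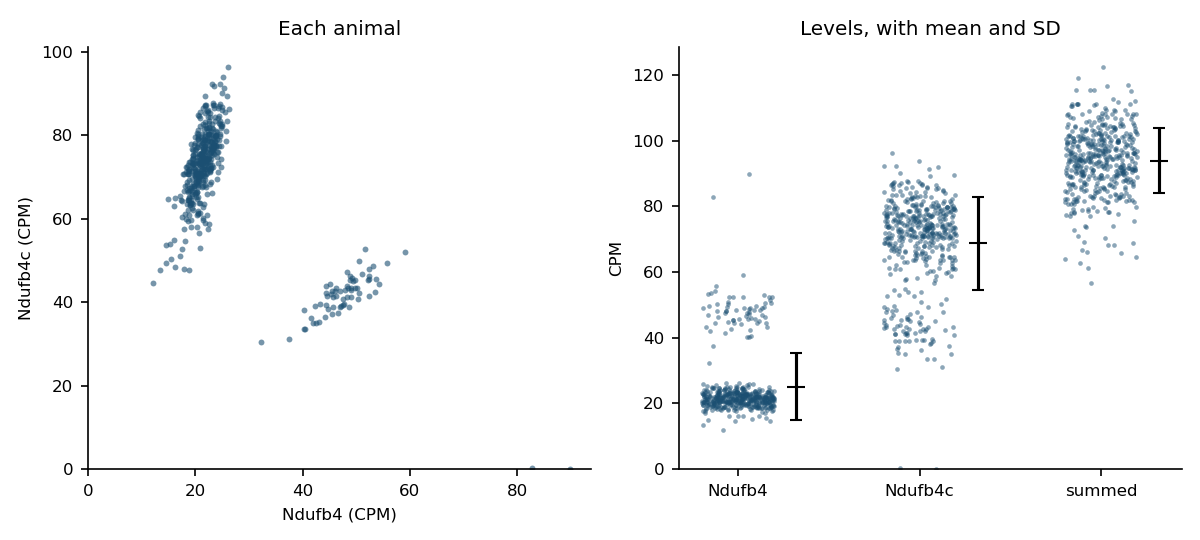
Left, Ndufb4 against Ndufb4c in CPM, 1 point per animal. Right, Ndufb4, Ndufb4c and their sum in CPM, 1 point per animal, with the mean and SD over all animals beside them. The points form 3 separate clusters, the smaller ones of 65 and 2 animals, while the summed level forms a single range from 56.7 to 122.4 CPM.

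No correlation between Ndufb4 and Ndufb4c is given, since over all libraries it would rest on the clusters, and within a cluster the narrow range of the share that defines it fixes the relation. The values below are on log2 CPM after sex, generation and block were removed. Over the largest cluster the median r of Ndufb4 with the 34 other subunits was 0.52, and that of the summed level was 0.64. Over all libraries the summed level had a median r of 0.61. Across all libraries, where the clusters set the values, the strongest correlates of Ndufb4 lay close to it. Of 10, the copy left aside, 7 started within 4 Mb of Ndufb4 on chromosome 16, among them Polq and Iqcb1. Of the 10 strongest correlates of Ndufb4c, 7 lay near Ndufb4 and 0 near Ndufb4c itself. Within the largest cluster, r of Ndufb4 was -0.10 with Polq and -0.23 with Iqcb1.

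Ndufab1 and Gm4459 were divided less sharply. In 38 libraries Gm4459 made up at most 3.37% of the summed level of Ndufab1 and Gm4459, and in all others it made up 8.75 to 48.4%. Ndufab1 was at a median of 110.5 CPM (80.2 to 132.2) in the 38 libraries and 67.4 CPM (36.1 to 99.6) in the others. The summed level had medians of 112.5 and 112.4 CPM. Over those others the median r with the 35 subunits was 0.13 for Ndufab1 alone, 0.45 for Gm4459 alone and 0.39 for the sum, and r between Ndufab1 and Gm4459 was -0.06. For both genes the level of the gene alone differed between the clusters more than the sum did. Given close sums, this follows from cutting the clusters on the share and is no separate result. What sets the clusters apart was not tested.

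Levels were compared between genes per length, as CPM per kilobase of annotated exon. On this scale the role medians of the subunits were alike, with 85.7 CPM per kilobase over the 7 core subunits, 75.6 over the 9 matrix-arm accessory subunits and 78.9 over the 19 membrane-arm accessory subunits, although the membrane-arm subunits alone ran from 9.30 to 184.97. The 8 assembly factors had a median of 7.37 CPM per kilobase, and the highest of them, Ndufaf1, had a median over animals of 18.1. The membrane-arm subunit Ndufb9 had 183.3 ± 25.1 CPM per kilobase (SD over all animals), and Ndufa8 had 135.5 ± 16.3.

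Core subunits differed among themselves. Ndufv1, which binds the flavin and NADH, had 99.6 ± 11.01 CPM per kilobase, and its neighbour Ndufv2, which carries an iron-sulfur cluster, had 93.5 ± 8.60. Ndufs3 had 85.9 ± 8.08, Ndufs7 had 62.7 ± 9.97 and Ndufs8 had 50.6 ± 6.495 CPM per kilobase. Ndufs1, the largest core subunit, had 47.8 ± 4.45 CPM per kilobase on this scale but 145.4 when the length of the principal transcript was used, because its annotated exons add up to far more than that transcript. Ndufb2 had low values on both scales, with 9.13 ± 1.68 CPM per kilobase of exon and 11.8 per kilobase of its principal transcript. Its mean level was 51.4 CPM, and its annotation is long, with 5628 bases of exon and a longest transcript of 4371 bases. The scales are thus not independent checks of a low level for this gene. Ndufb7 had 15.3 ± 2.20 CPM per kilobase of exon but 111.2 per kilobase of its principal transcript. The gap between subunits and assembly factors was present on both scales. With principal transcripts the medians were 145.1, 104.7 and 111.6 CPM per kilobase for core, matrix-arm and membrane-arm subunits and 8.14 for assembly factors. The core median thus stood above the accessory medians on that scale.

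Ndufa4 had 154.4 ± 15.8 CPM per kilobase and its relative Ndufa4l2, known as a gene induced by low oxygen, had 2.85 ± 0.66. Between these paralogs the ranges over animals did not overlap, with 107.3 as the lowest value of Ndufa4 and 4.94 as the highest of Ndufa4l2. Together the 47 genes took 0.330 to 0.654% of the counts of a library, with a median of 0.487%. Their summed level had a median of 4840 CPM in females (3669 to 6274) and 4923 CPM in males (3570 to 6315), so the sexes overlapped over nearly the whole range.

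Between the sexes, the complex I genes differed little and in both directions. With edgeR (quasi-likelihood F-test, generation as covariate) and Benjamini-Hochberg adjustment over all 18823 genes tested, 22 of 47 genes passed an adjusted p of 0.05, which is 46.8% of them, against 55% of all genes tested. Of these, 14 were higher in males (29.8%, against 24.4% of all genes) and 8 were lower (17.02%, against 30.6%). The share called turned with the scale: 30 of 47 (63.8%) passed when libraries were scaled by total count, against 57.4% of all genes, and 30 of 47 when the slopes of each library's values on transcript GC content and length were covariates, against 56.5%. The differences were small: the median absolute log2 difference was 0.04 over the 47 genes and 0.09 over all genes tested, and 0 of the 47 reached 1.5-fold.

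The balance of directions depended on the scale. When libraries were scaled by their total count alone, 8 genes were called higher and 22 lower in males (17.7% and 39.7% of all genes, 57.4% together), and the median log2 difference of all genes moved from -0.01 to -0.05. When the slopes of each library's values on transcript GC content and length were added as covariates, a step chosen after the data were seen, 26 were called higher and 4 lower (24.9% and 31.6% of all genes, 56.5% together). Within single blocks 1 to 5, where fewer animals entered the fit, 4, 6, 8, 13 and 10 genes passed, against 19.4%, 21.6%, 23.7%, 28.6% and 23% of all genes. Within generations 17, 18, 19, 21 and 23, 6, 5, 4, 8 and 7 passed, against 24.7%, 25.6%, 23.3%, 27.6% and 27.5%. The library length slope itself was higher in males by 0.031 (permutation test, 2-sided, 100000 resamples, p = 6e-05), while the GC slope had a difference of -0.0044 (p = 0.809 in the same test). The count of genes in each direction therefore depends on the scaling. For 12 genes the call did not depend on it: they were called in the same direction in the main test and in all 12 other fits to the pooled libraries, among them Ndufs4, Ndufa4l2, Ndufa4, Ndufaf2, Ndufa8, Ndufa12 and Ndufc2, higher in males, and Ndufaf5, Ndufaf3, Ndufa1 and Ndufs8, lower in males. Of the 22 genes called, 17 had the same sign within each of the 5 blocks, and the 5 that did not were Ndufa11, Ndufa13, Ndufaf7, Ndufa10 and Ndufc2.

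**Figure D2:**
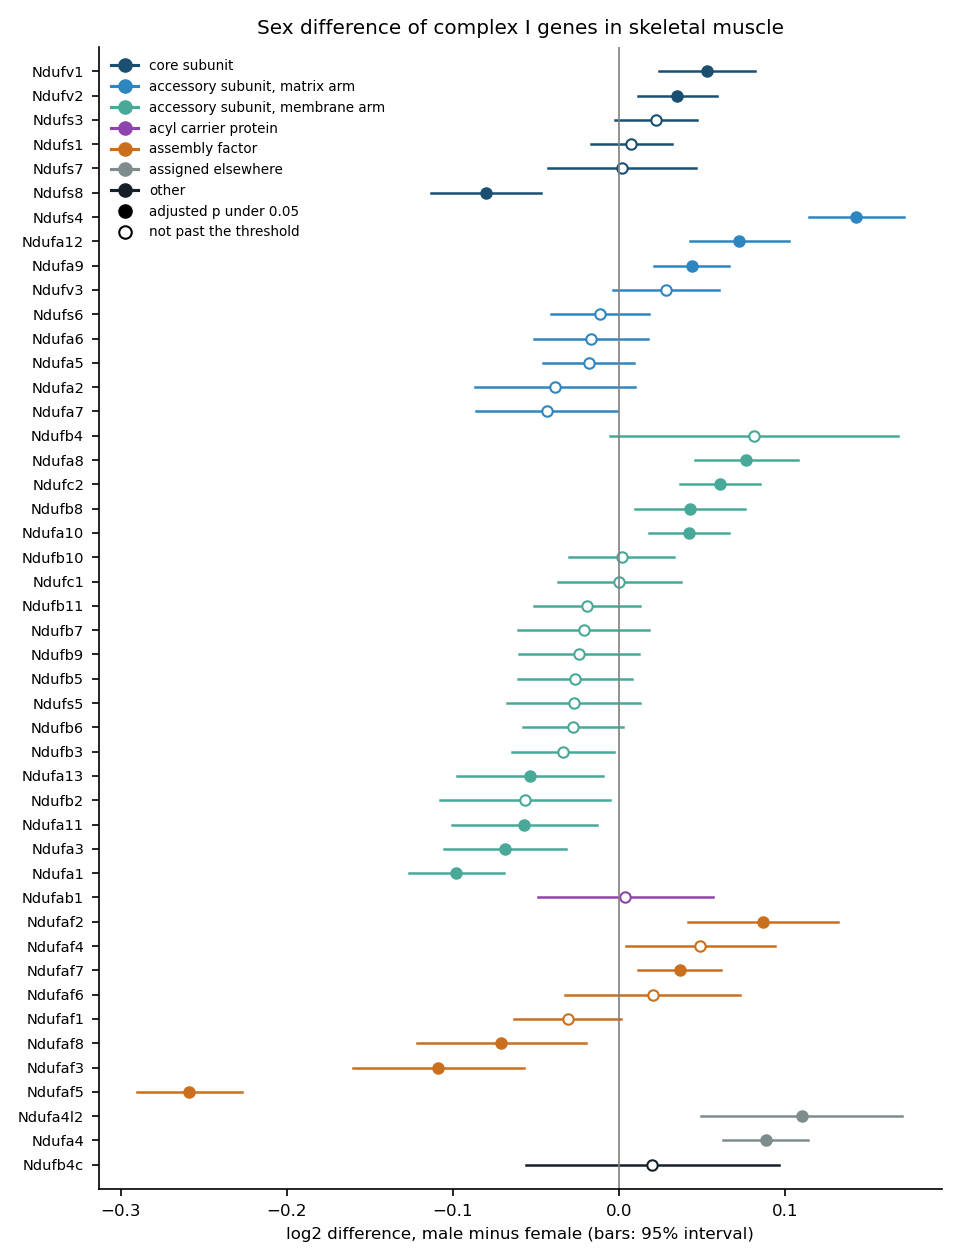
Log2 difference between males and females for 46 of the genes, grouped by role, with 95% intervals from the standard error of the fit. Filled points passed an adjusted p of 0.05; the largest fall was that of Ndufaf5 (-0.26) and the largest rise that of Ndufs4 (0.14).

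The largest difference was that of Ndufaf5, an assembly factor that hydroxylates an arginine of the core subunit Ndufs7. Females ran from 15.7 to 33.3 CPM with a median of 21.5, and males from 12.98 to 24.5 with a median of 17.97. The male values lay lower as a group, but the ranges overlapped. The log2 difference was -0.26 (SE 0.02, edgeR adjusted p = 9.55e-45), a level 16.4% lower in males. It was lower in males in each of the 5 generations, by -0.31 to -0.22, and in each of the 5 blocks, by -0.33 to -0.23. No exon of Ndufaf5 overlaps another gene of the table.

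The largest rise was that of Ndufs4, an accessory subunit of the matrix arm whose loss is known to cause a mitochondrial encephalopathy in mice. Females ran from 77.6 to 142.7 CPM with a median of 100.3, and males from 77.9 to 160.4 with a median of 110.5. Nearly the whole range was shared, with a shift of the middle of the distribution. The log2 difference was 0.14 (SE 0.01, edgeR adjusted p = 1.63e-19), or 10.4% higher in males, and it lay between 0.11 and 0.16 in the 5 generations and between 0.10 and 0.18 in the 5 blocks.

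**Figure D3:**
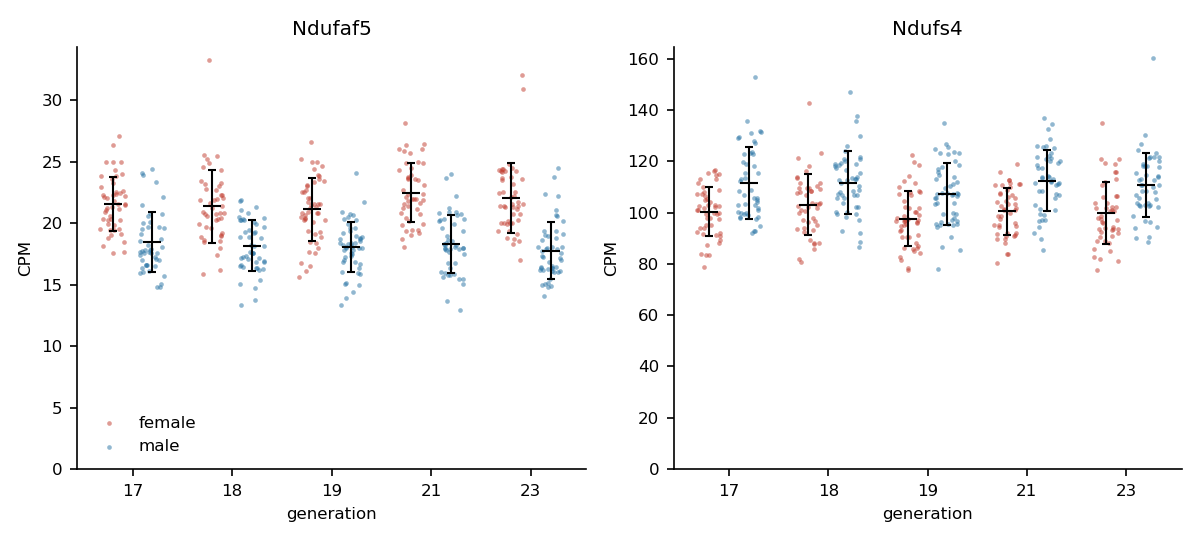
Levels of Ndufaf5 and Ndufs4 in CPM by generation and sex, 1 point per animal, with the mean and SD of each group. Ndufaf5 was lower and Ndufs4 higher in males than in females in each of the 5 generations, with overlapping ranges.

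The core subunits described here did not share one direction. Ndufv1 was higher by 0.05 (edgeR adjusted p = 9.05e-04) and Ndufv2 by 0.04 (edgeR adjusted p = 0.00825), and neither passed when libraries were scaled by total count (edgeR adjusted p = 0.196 and 0.769). Ndufs8, which carries a pair of iron-sulfur clusters, went the other way, with medians of 67.1 CPM in females (38.1 to 94.8) and 63.5 in males (36.8 to 104.9) and a log2 difference of -0.08 (SE 0.02, edgeR adjusted p = 1.04e-05). Ndufs1, Ndufs3 and Ndufs7 had log2 differences of 0.01, 0.02 and 0.00, with 95% intervals of -0.02 to 0.03, -0.0028 to 0.05 and -0.04 to 0.05. The intervals of these 3 lay within 0.05 of 0 on the log2 scale.

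Of the 9 matrix-arm accessory subunits, 3 were higher in males and 0 were lower, with Ndufa12 at 0.07 (SE 0.02) and Ndufa9 at 0.04 (SE 0.01) beside Ndufs4. The 19 membrane-arm accessory subunits divided into 4 higher, 4 lower and 11 that did not pass. Ndufa8, one of the twin-cysteine subunits of the intermembrane space, was higher by 0.08 (SE 0.02), and Ndufc2 by 0.06 (SE 0.01), although within block 2 its difference was -0.00437. Ndufa1 had the largest fall among them, with a median of 52.6 CPM in females (34.9 to 68.1) and 49.1 in males (26.4 to 66.2) and a log2 difference of -0.10 (SE 0.01, edgeR adjusted p = 3.73e-10). Ndufa1 lies on the X chromosome, as does Ndufb11, which had a log2 difference of -0.02 (95% interval -0.05 to 0.01) and did not pass. Ndufa3, Ndufa11 and Ndufa13 were lower by -0.07, -0.06 and -0.05, and none of them passed with the library slopes as covariates (edgeR adjusted p = 0.490, 0.396 and 0.388). Within block 5 the difference of Ndufa11 was 0.0185 and that of Ndufa13 was 0.0255.

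The assembly factors spread most widely, with 2 higher, 3 lower and 3 that did not pass. Besides Ndufaf5, Ndufaf3 was lower by -0.11 (SE 0.03, edgeR adjusted p = 1.27e-04), with medians of 6.75 CPM in females (3.39 to 11.6) and 6.49 in males (2.60 to 11.5), and Ndufaf8 by -0.07 (SE 0.03, edgeR adjusted p = 0.0138). Ndufaf8 was not among the genes called lower with the library slopes as covariates. Exons of Ndufaf3 overlap Impdh2 on the other strand, which had 44.8 CPM, and any use of strand in the counting is not given in the sources used here, so the value of Ndufaf3 is uncertain. Ndufaf2, which takes the place of a late-joining subunit during assembly, was higher by 0.09 (SE 0.02, edgeR adjusted p = 5.49e-04), with medians of 4.50 CPM in females (2.86 to 7.09) and 4.88 in males (2.59 to 8.01). Ndufaf7, a mitochondrial methyltransferase, was higher by 0.04 (SE 0.01), but did not pass with total-count scaling (edgeR adjusted p = 0.783). Ndufaf1, Ndufaf4 and Ndufaf6 had log2 differences of -0.03, 0.05 and 0.02 and did not pass.

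Both genes assigned elsewhere were higher in males. Ndufa4 had medians of 206.6 CPM in females (150.5 to 282.5) and 220.8 in males (148.1 to 281.5), with a log2 difference of 0.09 (SE 0.01, edgeR adjusted p = 2.80e-10). Ndufa4l2 had a log2 difference of 0.11 (SE 0.03, edgeR adjusted p = 0.00111) with medians of 2.98 CPM in females (1.36 to 5.37) and 3.23 in males (1.46 to 5.41), and its exons overlap the more abundant Shmt2 on the other strand (20.2 CPM). Ndufb4 and Ndufb4c did not pass, with log2 differences of 0.08 and 0.02. Summed, Ndufb4 and Ndufb4c had means of 92.7 CPM in females and 94.98 in males. Ndufab1 had a log2 difference of 0.00 (95% interval -0.05 to 0.06).

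Other genes of the respiratory chain, taken from lists of each complex, were counted in the main fit. There 24.4% of all genes tested were higher and 30.6% lower in males. The lists were not counted on the other scales. Genes of complexes II to V divided between both directions, whereas those of complex I encoded by mitochondrial DNA and its other assembly factors did not. Among the 7 subunits of complex I encoded by mitochondrial DNA, 5 were higher in males and 0 lower, led by mt-Nd2 with a log2 difference of 0.16 (SE 0.04). Of 12 other assembly factors of complex I, 0 were higher and 4 lower. In complex II, 1 of 4 genes was higher and 1 lower, in complex III 2 and 2 of 9, in complex IV 6 and 3 of 13, and in the ATP synthase (complex V) 4 and 3 of 15. Of 10 regulators of mitochondrial gene expression, 5 were higher and 3 lower, with the coactivator gene Ppargc1a higher in males by 0.23 (SE 0.06) and its relative Ppargc1b lower by -0.27 (SE 0.03).

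Markers of fibre types and of other cell types also differed between the sexes. They too were counted in the main fit alone, beside the same shares of all genes. Their part in the differences above was not tested beyond the covariates given here. All 9 slow-fibre markers were lower in males, with a median log2 difference of -0.45 and a summed level of 656.9 to 10433 CPM in females and 961 to 8508 CPM in males. Of 9 adipocyte markers, 8 were lower and 1 was higher, with 437.9 to 2174 CPM in females and 372.9 to 1460 CPM in males. Of 8 fast-fibre markers, 5 were higher and 2 lower, and of 9 macrophage markers 0 were higher and 1 lower. With slow-fibre and adipocyte scores as covariates, 19 of the 47 complex I genes passed, 13 higher and 6 lower in males, against 46.9% of all genes (22.4% higher and 24.5% lower). With the slow-fibre score alone 19 passed, 14 higher and 5 lower, against 51.8%. Without the 5 libraries whose sex-linked transcripts went against the label, 21 passed, 14 higher and 7 lower, against 54.7% of all genes (24.7% higher and 29.9% lower).

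Between generations, 0 of 47 genes passed the F-test of edgeR with sex as covariate (adjusted over all genes), against 7.56% of all genes tested. At an unadjusted p of 0.05 there were 4, and DESeq2 and limma on the deposited scores also called 0 of the 47, against 8.05% and 6.87% of all genes. The lowest edgeR adjusted p was that of Ndufb3, at 0.177. The highest and the lowest of the 5 fitted generation levels differed by 0.01 to 0.13 on the log2 scale, with a median of 0.05, compared with 0.11 over all genes. For the interaction of sex and generation, 0 of 47 passed against 0.531% of all genes (edgeR), with 0 at an unadjusted p of 0.05, and DESeq2 and limma on the deposited scores called 0 of the 47 as well, against 0.207% and 0.0% of all genes. The sex difference of these genes was thus not shown to vary between generations.

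Between blocks of library numbers, most of the genes passed. With sex and generation as covariates, 44 of 47 genes passed the F-test of edgeR (adjusted over all genes), against 47.4% of all genes tested, and the 3 that did not were Ndufa4l2, Ndufb4 and Ndufa12. The highest and the lowest fitted block level of a gene differed by a median of 0.15 on the log2 scale over the 47 genes, compared with 0.18 over all genes. Of the 44, 35 had their lowest level in block 1 and 22 their highest in block 5. The medians of the fitted log2 levels over the 47 genes, relative to block 1, were 0.11, 0.08, 0.12 and 0.14 in blocks 2 to 5. Ndufb2 moved most, with levels 0.43, 0.52, 0.45 and 0.55 above block 1, and the assembly factor Ndufaf6 followed with 0.17, 0.49, 0.48 and 0.50.

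Block 1 also stood apart in a measure taken over all genes of a library. The GC slope of a library, the correlation over all genes tested of its standardised log2 values with transcript GC content, had a mean of -0.18 ± 0.22 (SD, n = 96) in block 1 and means of 0.10, 0.08, 0.03 and 0.05 in blocks 2 to 5. With the GC and length slopes as covariates, 33 of the 47 genes passed between blocks, against 26.2% of all genes. Of the 44 genes above, 30 were among them, and the other 3 were Ndufa4l2, Ndufb4 and Ndufa12.

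**Figure D4:**
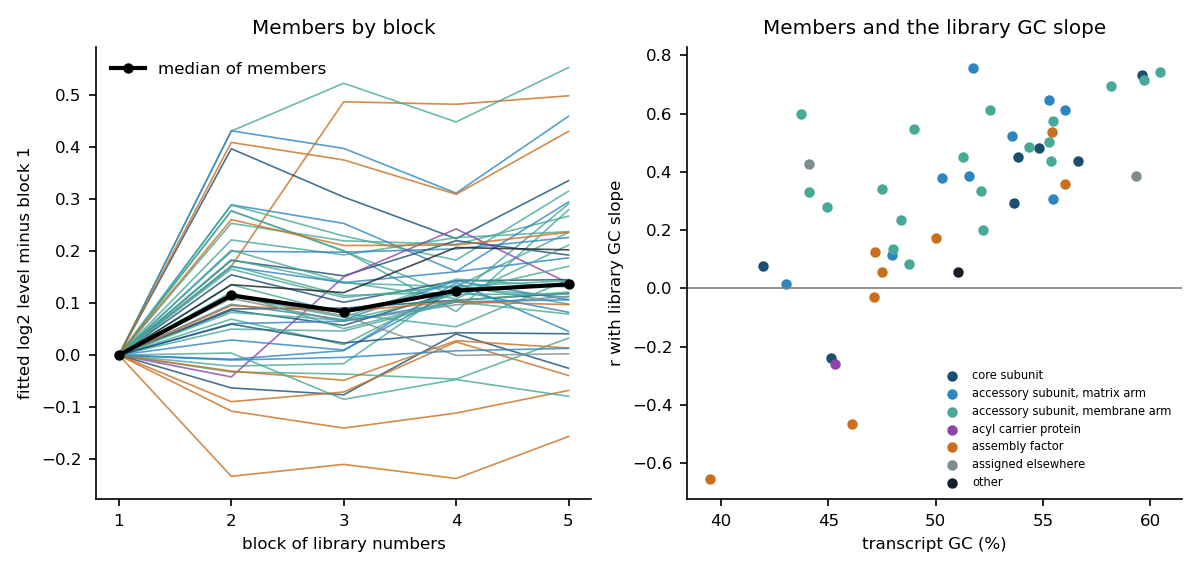
Left, fitted log2 level of each of the 47 genes in the 5 blocks of library numbers relative to block 1, coloured by role as in the right panel, with their median in black, which lay at 0.08 to 0.14 in blocks 2 to 5. Right, for each gene, the GC content of its principal transcript against its correlation over animals with the library GC slope, which ran from negative values in transcripts of low GC content to 0.76.

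The spread between animals, as the SD of log2 CPM after sex, generation and block were removed, was largest for Ndufb4c (0.66), Ndufb4 (0.44), Ndufa4l2 (0.34), Ndufaf3 (0.27) and Ndufab1 (0.26). Ndufb4, Ndufb4c and Ndufab1 are the genes whose counts fell into clusters of libraries. Exons of Ndufa4l2 (mean 3.12 CPM) and Ndufaf3 (mean 6.74 CPM) overlap a more abundant gene on the other strand. Their r with that gene was 0.17 and 0.38. What sets these spreads was not tested. Of the other members with a near-identical transcript elsewhere, Ndufs5 had an SD of 0.22, Ndufa12 of 0.17 and Ndufs3 of 0.13. The SD of the summed level was 0.15 for Ndufb4 with Ndufb4c and 0.15 for Ndufab1 with its copies. The smallest SDs were those of Ndufa9 (0.12), Ndufa10 (0.13) and the core subunit Ndufs1 (0.13).

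Across animals, after sex, generation and block were removed, the subunits rose and fell together. The median Pearson r over all pairs of the 35 subunits was 0.54, every pair was above 0, and 60.3% of pairs were above 0.5. With the library GC and length slopes removed as well, the median was 0.34. Over all pairs of the 18823 genes tested the median was 0.00 and 0.218% were above 0.5. The points of these correlations are the same libraries and share their depth and base composition, so the values are a description. The strongest pair was Ndufa11 and Ndufs7 with r = 0.91, a membrane-arm and a matrix-arm subunit. Pairs across the arms had a median of 0.54, beside 0.53 among the core subunits, 0.48 among matrix-arm accessory subunits and 0.58 among membrane-arm accessory subunits, so the arms were not set apart from each other.

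The genes most in step with the others were Ndufb10, a membrane-arm subunit with a mean r of 0.56 to the other 46 genes, Ndufa4 with 0.55 and Ndufa8 with 0.53. The genes of the whole table most correlated with them were not other Nduf genes but Atp5o (r = 0.85), Cox4i1 (0.82) and Atp5g3 (0.84), of the ATP synthase and cytochrome c oxidase. The median r of the subunits with genes of complex III was 0.59, with complex V 0.56, with complex IV 0.50 and with complex II 0.48. Ndufa4 had r = 0.82 with Cox4i1, and its median r of 0.62 with the other complex I genes was among the highest of all 47.

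Assembly factors followed this pattern more weakly. Their median r was 0.14 among themselves and 0.25 with the subunits, 85.4% of the pairs with subunits were above 0, and 0 of their 28 pairs were above 0.5. Ndufaf4 was the lowest of the 47, with a mean r of -0.09 with the other genes, and r = -0.48 with Ndufa13. It was most correlated with Synj2bp (r = 0.70). Ndufaf1 had a mean of 0.12, or 0.26 with the library GC and length slopes removed, the highest of the 8 assembly factors on that scale and above some subunits, such as Ndufa7 (0.17) and Ndufa12 (0.19). It was most correlated with Dld (0.64), a subunit of the pyruvate dehydrogenase complex.

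**Figure D5:**
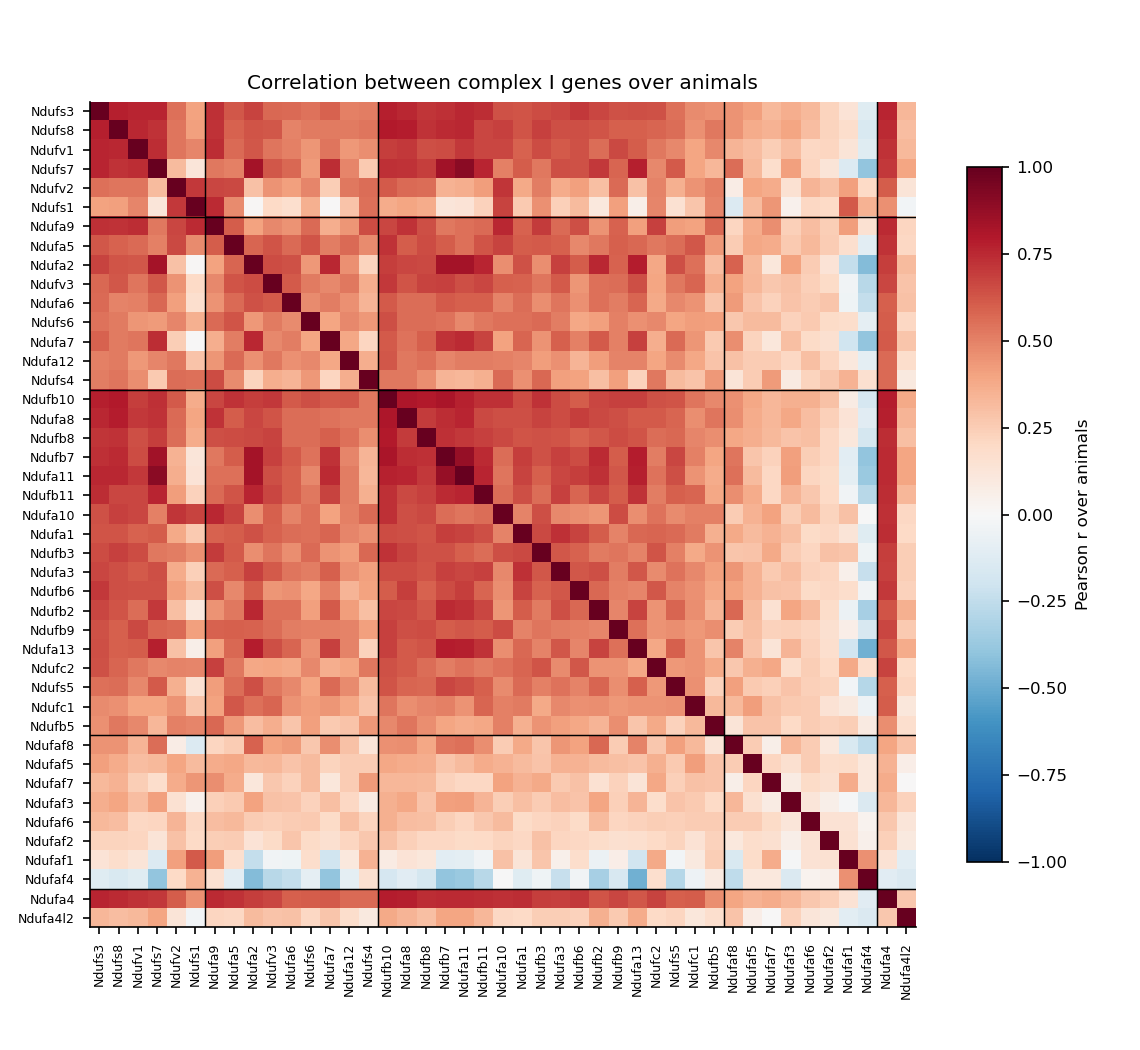
Pearson correlation over all animals between each pair of 43 of the genes, on log2 CPM after sex, generation and block were removed, ordered by role with lines between roles. The subunit block is positive throughout (median 0.54) and the assembly factors are paler (0.25 with the subunits). Both medians were taken over all 35 subunits, those not drawn included. Ndufb4, Ndufb4c and Ndufab1 are left out because their libraries fall into clusters.

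These correlations moved when the library GC and length slopes were removed. The slopes are computed from the same expression values over all genes tested, these genes among them. Removing them may therefore also take out expression shared between genes, which was not tested. A subunit's r with the library GC slope ran from -0.24 (Ndufs1) to 0.76 (Ndufa2), and over the 35 subunits this r rose with the GC content of the transcript (r = 0.69 across genes, which are not independent replicates). Ndufaf4, with the lowest transcript GC content of the 47 at 39.5%, had r = -0.65 with the GC slope. The r of a subunit with the library length slope was negative for all 35, from -0.75 to -0.02 with a median of -0.61, beside a median of 0.44 for the GC slope. With the GC and length slopes removed as well, the mean r of Ndufaf4 with the other genes was 0.14 in place of -0.09. The highest means then belonged to Ndufa9 (0.44), Ndufb10 (0.42) and Ndufa4 (0.41). Within the single blocks the median among subunits ran from 0.45 to 0.57, and it was 0.55 in females and 0.52 in males.

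Other genes from the lists, 8 in number, were related to each of the 47 genes across animals, each with Pearson's r and Spearman's rho and a 2-sided permutation test of 100000 resamples, adjusted over the family. Esrra, which encodes a nuclear receptor that drives mitochondrial genes in muscle, had the clearest relation among the regulators, with 45 of 47 genes positive at an adjusted p of 0.05, by r and by rho. The counts for the genes that follow are by r. These tests were run for the 47 genes only, so no share of all genes stands beside the counts. The median r was 0.39 and the median rho 0.35, over a range from 0.05 to 0.64, the highest being Ndufa8 with r = 0.64 (rho = 0.56, permutation p = 1e-05, the smallest the resamples can give, for both). Leaving out the 2 animals farthest from the median of Esrra changed r by at most 0.0432, and the sign was the same in all 5 blocks for 38 genes. With the library slopes removed the median r was 0.30, with 47 of 47 positive. Over all genes tested, without the slopes removed, the median r with Esrra was -0.01.

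Ppargc1a, the coactivator that partners this receptor, gave other values. Its r with the 47 genes had a median of -0.04, with 3 positive and 11 negative at an adjusted p of 0.05 by r, and the sign was the same in all blocks for 6. With the library slopes removed the median r was 0.05, and 38 of 47 values were positive. Myh7, the slow myosin, had 2 positive and 2 negative with a median of 0.01. Adipoq, an adipocyte gene, was negative for 41 genes and positive for 0, with a median of -0.19, beside -0.006 over all genes tested. Cox4i1 and Atp5b were positive for 45 and 46 genes, with medians of 0.60 and 0.55. Over all genes tested the median r was -0.014 with Cox4i1 and with Atp5b, -0.008 with Ppargc1a and -0.003 with Myh7.

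The mitochondrially encoded partners in complex I gave a relation that differed between blocks and with the library slopes removed. The subunit gene mt-Nd1 was positive for 10 and negative for 21 of the 47 genes, with a median r of -0.07, and mt-Nd5 was positive for 8 and negative for 29, with a median of -0.16. Over all genes tested the median r was -0.029 with mt-Nd1 and -0.026 with mt-Nd5. The median rho was -0.05 for mt-Nd1 and -0.09 for mt-Nd5, 28 of the 31 and 29 of the 37 calls also passed by rho, and leaving out the 2 farthest animals changed r by up to 0.026 and 0.087. Within block 1 the medians were -0.37 and -0.46, whereas in block 3 they were 0.03 and 0.08. With the library GC and length slopes removed, the medians were 0.18 and 0.21 and the values were positive for 46 and 44 of 47 genes. For mt-Nd1 and mt-Nd5 the sign of the median was thus not the same on both scales. Without the slopes removed, the other mitochondrially encoded genes differed among themselves in their r with the 35 subunits, since mt-Nd3 was positive for 35 (median 0.22) and mt-Nd4l for 33 (median 0.04), while mt-Nd2, mt-Nd4 and mt-Nd6 were positive for 6 each.

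Promoter sequences were read from the RefSeq windows for GRCm38.p6 (250 bases before to 50 after each start), which matched 40 of the 47 genes. On either strand, the letters GCGCATGC, from sites of the regulator NRF1, were found in 5 of 40 windows (12.5%), against 3.05% of 27025 genes. The letters AAGATGGC, of the factor YY1, were in 8 of 40 windows (20%) against 3.19%, CCGGAAG (ETS factors) in 15.0% against 9.93%, TGACGTCA (CRE) in 7.5% against 2.03%, AAGGTCA (the receptor family of Esrra) in 7.5% against 5.38% and GGGCGG (SP factors) in 52.5% against 38.2%. These are matches of letters and not sites. The 27025 genes were not limited to genes expressed in muscle, so the contrasts are not between complex I genes and other expressed genes. Ndufa8 and Ndufaf4 are shown because both hold the NRF1 letters while their mean r with the other complex I genes differed, and Ndufb4 because it holds the letters AAGGTCA. Capitals mark any of the 6 motifs, in the 120 bases before the RefSeq start, and the capitals that open the Ndufa8 stretch are an SP match whose first base lies just before the stretch.

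Ndufa8, chr2:36049339-36049458, minus strand: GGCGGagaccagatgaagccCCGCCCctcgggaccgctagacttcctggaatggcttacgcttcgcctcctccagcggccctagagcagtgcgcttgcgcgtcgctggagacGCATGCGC
Ndufaf4, chr4:24897963-24898082, plus strand: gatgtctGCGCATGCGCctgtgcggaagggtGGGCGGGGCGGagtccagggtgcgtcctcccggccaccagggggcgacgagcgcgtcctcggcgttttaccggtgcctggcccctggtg
Ndufb4, chr16:37654369-37654488, minus strand: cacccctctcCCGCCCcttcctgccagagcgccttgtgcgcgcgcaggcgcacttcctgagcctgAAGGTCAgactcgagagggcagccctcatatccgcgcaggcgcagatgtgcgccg

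The same letters thus stand before a gene with a mean r of 0.53 with the other complex I genes and before one with a mean r of -0.09 (0.40 and 0.14 with the library slopes removed), and nothing follows from them about the binding of a factor.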

How the data were processed

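PolyA-selected RNA of skeletal muscle (gastrocnemius, per the study) was sequenced in pairs. The authors joined both mates, aligned them to a transcriptome combining the founder strains and deposited expected counts per gene, estimated with EMASE through GBRS. Versions and any use of strand are not given in the sources used here. The authors also deposited a score, the variance stabilising transform of DESeq2, with GRCm38 named in the submitters' processing notes. Of the expected counts, 68.6% were whole to 1e-06, and they were rounded. Starts and ends equalled GENCODE M21 for 99.2% of genes.

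The genes and lists were chosen with earlier results of these data known. Counts were analysed in R 4.3.3 with edgeR 4.0.16 (filterByExpr, minimum 10, leaving 18823 genes; TMM; quasi-likelihood F-test on all libraries; Benjamini-Hochberg over all genes, threshold 0.05). Log2 CPM used a prior count of 2. Alternatives used DESeq2 1.42.0, limma 3.58.1, other scalings and filters, and fits within blocks or generations. Correlations, motifs and figures used Python 3.11.15, scipy 1.17.1 and matplotlib 3.10.9, and copies were found with blastn 2.17.0. Scripts were tested on simulated data. Library slopes are correlations over genes of standardised log2 CPM with GC content or log2 length of the principal transcript. In log2 values within clusters of libraries 0.05 CPM was added. P-values measure the spread between animals, each measured once. Genes named with values were core subunits, the 6 called genes with the largest rise and the 6 with the largest fall in males, those with the largest and smallest SD, all assembly factors, the paralogs Ndufa4 and Ndufa4l2, and the genes with the highest and lowest mean correlation. Other named genes, and the closer look at Ndufb4 and Ndufab1, were chosen after their values were seen. The values of 1 gene are not reported here.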

Additional observations from a re-analysis of the deposited data

How the results depend on the processing

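The alternatives with library slopes, merged copies or a slow-fibre score were chosen after the data were seen. Within the smaller sets of libraries fewer complex I genes passed between the sexes. Within blocks 1 to 5 there were 4 (2 higher and 2 lower in males), 6 (1 and 5), 8 (4 and 4), 13 (6 and 7) and 10 (8 and 2), and within generations 17, 18, 19, 21 and 23 there were 6 (3 and 3), 5 (3 and 2), 4 (2 and 2), 8 (5 and 3) and 7 (5 and 2). Scaling by total count gave 8 higher and 22 lower, the library slopes as covariates gave 26 higher and 4 lower, and the slow-fibre score alone left 5 lower. In all other fits to the pooled libraries the counts stayed within 1.5 times those reported. The log2 sex difference turned positive within block 5 for Ndufa11 (0.0185) and Ndufa13 (0.0255), and with the library slopes for Ndufb11 (0.0251), Ndufa5 (0.0285) and Ndufs6 (0.0301), and turned negative within block 2 for Ndufaf7 (-0.0142), Ndufa10 (-0.0214) and Ndufc2 (-0.00437). Counts of 0 for generation and for the interaction held in every fit run.

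With the library slopes removed, the median r among subunits was 0.338 and the median r with Cox4i1 was 0.452, with Atp5b 0.416, with mt-Nd1 0.181 and with mt-Nd5 0.212. Within block 1 the median was -0.164 for Ppargc1a, 0.563 for Esrra, -0.367 for mt-Nd1 and -0.457 for mt-Nd5. Within block 2 it was -0.263 for Adipoq and 0.0707 for mt-Nd1, and within block 3 it was -0.0655 for Myh7, 0.0319 for mt-Nd1 and 0.0784 for mt-Nd5. Within block 4 it was 0.451 among subunits, 0.0906 for Ppargc1a, 0.559 for Cox4i1 and 0.474 for Atp5b, and within block 5 it was 0.107 for Myh7, 0.637 for Cox4i1 and 0.612 for Atp5b. The cause of these shifts was not tested. No paired analysis was possible because each animal number occurs once, so the groups share no replicate numbers.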
